A study of Mus musculus with 18 samples.

Results

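Chemokine ligands were taken as every gene whose symbol is Ccl, Cxcl, Cx3cl or Xcl followed by a number and at most 1 letter. This rule on names, which used no measured value, found 38 of the 51290 genes in the count table. Of these, 24 had enough counts to be tested in at least 1 of 3 comparisons fitted on pairs of groups, and 14 in none of them. Ccl21b and Ccl26, which are among the 14, had a count of 0 in all 18 libraries.

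Poly(A) RNA of 18 mouse samples in 3 groups of 6 had been sequenced. Normal nerve was trigeminal nerve of Nf1 flox/flox PostnCre- animals. The plexiform neurofibromas, benign nerve tumours, were trigeminal nerves of Nf1 flox/flox PostnCre+ animals. Malignant peripheral nerve sheath tumours (MPNST) came from 6 mice that were Nf1 flox/flox, Arf flox/flox and PostnCre+, and their body site is not given in the labels. The floxed Nf1 alleles were thus common to all 3 groups, and PostnCre, a Cre recombinase named for the periostin gene, was carried by both tumour groups. The Nf1 product neurofibromin restrains RAS signalling, while Arf, 1 of the products of Cdkn2a, acts as a tumour suppressor. Ages are not in the labels. The nerves and neurofibromas differ in genotype and so came from different animals. The labels do not say whether samples within either group came from separate animals, so p-values measure the spread between these samples. The nerve and neurofibroma libraries were taken by the submitters from another series. In every comparison with MPNST the series, the body site, the floxed Arf alleles and the tumour type thus cannot be told apart. Against nerve the same holds for PostnCre.

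Chemokines are small proteins, nearly all secreted, that bind G protein-coupled receptors on leukocytes and other cells and set the direction in which those cells migrate. They are classed by the spacing of their first cysteines as CC, CXC, CX3C and XC chemokines. In peripheral nerve, chemokines such as Ccl2 are known for drawing monocytes into injured nerve, and macrophages and mast cells are well-known residents of neurofibromas.

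Levels are given below as CPM, the counts of a gene scaled to a common library size after TMM (trimmed mean of M values) normalization, in the order lowest, median and highest of the 6 libraries of a group. Library totals were 14303986 to 20335697 counts for nerve, 15307987 to 20056513 for neurofibroma and 13886399 to 23652959 for MPNST. The 38 ligands together took 0.00699% to 0.0247% of the counts of a nerve library, 0.0142% to 0.0242% for neurofibroma and 0.0102% to 0.226% for MPNST. Several libraries stood apart. In MPNST library 2, salivary gland markers took 29.3% of counts, and in MPNST library 3 skeletal muscle markers took 5.14%. MPNST library 6 held 3805 CPM of sympathoadrenal markers, 3203 CPM of pancreatic acinar markers and 1910 CPM of sensory neuron markers, against at most 3.46, 27.0 and 53.0 CPM in the other MPNST libraries. Its Nf1 level of 112.8 CPM also lay above those of the other MPNST libraries (42.5 to 64.5 CPM) and of neurofibroma (63.7 to 87.5 CPM) and within those of nerve (79.9 to 155.9 CPM), though a count over the whole gene does not read the deletion. Cdkn2a was at 615.6 CPM in MPNST library 4, at 0.289 in library 6 and at 3.30 to 10.45 in the other MPNST libraries. Among the 12 other libraries, nerve library 6 was the highest for oligodendrocyte and astrocyte markers (1564 CPM), and neurofibroma library 1 for skeletal muscle (1660 CPM) and adipocyte markers (538.9 CPM). Sensory neuron markers summed to 3522 to 7709 CPM in nerve and 5271 to 6930 in neurofibroma, far above the 5.23 to 53.0 CPM of MPNST libraries 1 to 5. The Schwann cell list summed to 2714 to 6214 CPM in nerve, 6065 to 10502 in neurofibroma, and in the MPNST libraries 44.7 to 1074. Its defining gene Sox10 lay between 68.6 and 159.9 CPM in nerve and between 4.74 and 226.3 in MPNST, and S100b between 708.0 and 993.3 in nerve and between 0.867 and 70.8 in MPNST.

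Promoter sequence was at hand for 27 of the 38 ligands, as windows of 250 bases before to 50 bases after the RefSeq transcript start (build GRCm38.p6). Many ligand genes lie side by side. On chromosome 11, Ccl2, Ccl7, Ccl11, Ccl12, Ccl8 and Ccl1 form a run of 6 with at most 1 annotated gene between neighbours, and Ccl5, Ccl9, Ccl6, Ccl3 and Ccl4 form a second run. On chromosome 5, Cxcl5, Cxcl3, Cxcl15, Cxcl1 and Cxcl2 stand in a row, and Cxcl9, Cxcl10 and Cxcl11 in another. The bases directly before the start are printed for 2 neighbours that rose in both comparisons of MPNST (Ccl12 and Ccl8), for 2 more that did so in the second run (Ccl9 and Ccl6), for Cxcl10, which rose in neurofibroma, and for Cxcl1, which was not called anywhere. Each runs 5′ to 3′ on the gene's own strand, with matches to the motifs named below in capitals.
Ccl12, chr11:82101725-82101844, plus strand: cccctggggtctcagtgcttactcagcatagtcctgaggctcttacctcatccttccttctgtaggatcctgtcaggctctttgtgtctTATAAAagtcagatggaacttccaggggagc
Ccl8, chr11:82115065-82115184, plus strand: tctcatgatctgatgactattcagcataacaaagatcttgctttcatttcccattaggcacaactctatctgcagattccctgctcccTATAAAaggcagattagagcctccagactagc
Ccl9, chr11:83578637-83578756, minus strand: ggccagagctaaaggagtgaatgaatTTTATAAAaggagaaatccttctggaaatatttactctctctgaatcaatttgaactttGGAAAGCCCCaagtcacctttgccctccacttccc
Ccl6, chr11:83593088-83593207, minus strand: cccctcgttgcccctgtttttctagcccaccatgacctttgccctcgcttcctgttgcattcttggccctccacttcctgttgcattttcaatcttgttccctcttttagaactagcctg
Cxcl10, chr5:92348890-92349109, minus strand: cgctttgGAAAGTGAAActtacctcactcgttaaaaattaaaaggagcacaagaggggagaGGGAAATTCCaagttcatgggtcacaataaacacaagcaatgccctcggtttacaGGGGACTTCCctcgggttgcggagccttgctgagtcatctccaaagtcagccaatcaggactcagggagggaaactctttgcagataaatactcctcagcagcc
Cxcl1, chr5:90891125-90891244, plus strand: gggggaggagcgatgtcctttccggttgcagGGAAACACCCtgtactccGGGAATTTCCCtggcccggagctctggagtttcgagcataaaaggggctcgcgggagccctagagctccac

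Capitals mark a TATA motif (TATAAA), a kB-like motif (GGG, any 3 bases, TTCC) or an IRF-like motif (GAAA, any 2 bases, GAAA), each searched on both strands, with overlapping matches counted. The TATA motif began 31 bases before the start in Ccl12 and 32 in Ccl8, while in Ccl9 it stood 92 bases before the start and overlapped a match on the other strand. Ccl9 carried 1 kB-like match on the reverse strand, Cxcl10 carried 2 and an IRF-like match 213 bases before the start, and Cxcl1 carried 3, of which 2 overlap on opposite strands. None of the 4 motifs searched had its letters in the printed bases of Ccl6. Over all 32851 windows of this length, 5.56% held the kB-like motif, 3.44% the IRF-like motif, 8.3% a GAS-like motif (TTCNNNGAA) and 13.6% TATAAA. Of the 27 ligands with a window, 7 held the kB-like motif (Ccl1, Ccl20, Ccl9, Cxcl1, Cxcl10, Cxcl2 and Cxcl3), 3 the IRF-like motif (Ccl19, Cxcl10 and Cxcl14), 2 the GAS-like motif (Ccl17 and Cxcl14) and 9 TATAAA. A match of letters is a description and does not show that a factor binds. In a global alignment of the 250 bases before the start, Ccl21a and Ccl21d were 98.8% identical, against a median of 49.0% over 300 pairs of the 25 ligands with a single window. Their transcripts were not compared, and whether counts are split between them was not tested.

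**Figure D1:**
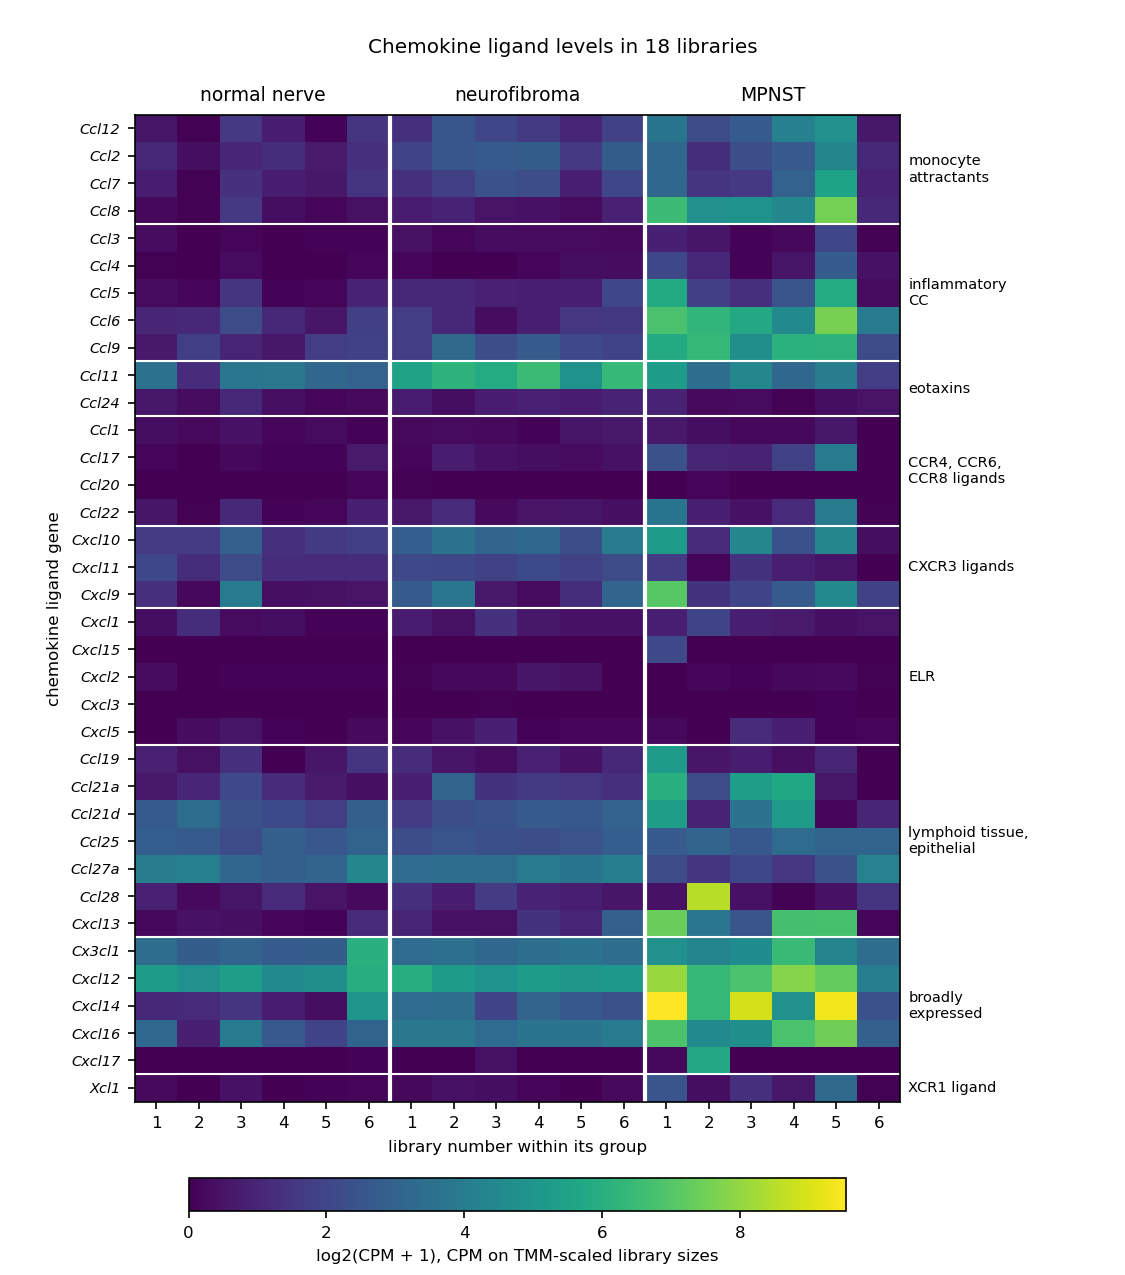
Levels of the 36 ligands with a count in any library. Each cell is 1 library (columns, by group) and 1 gene (rows, by role), coloured by log2(CPM + 1), and MPNST libraries 1 and 5 are bright over many rows while MPNST library 6 is dark over nearly all of them.

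Between neurofibroma and normal nerve, 4 ligands rose: Ccl11, an attractant of eosinophils, Ccl2, an attractant of monocytes, Ccl9, a ligand of CCR1, and Cxcl10, an interferon-induced ligand of CXCR3. Their fitted rises ran from 2.80-fold (Ccl9) to 7.02-fold (Ccl11). None of the 21 ligands tested fell, with edgeR's quasi-likelihood test at a Benjamini-Hochberg adjusted p below 0.05, nor at an unadjusted p below 0.05, nor with DESeq2 or limma-voom. The 4 calls are 19% of the ligands tested, beside 13.9% of all 16464 genes tested, or 7.94% for rises alone. The median log2 difference of the 21 ligands was 0.64, beside -0.02 over all genes. For 2 ligands, Ccl11 and Ccl2, every neurofibroma library lay above every nerve library, which 4.57% of all genes did, and for 0 ligands every neurofibroma library lay below, as for 1.9% of all genes. DESeq2 called 5 rises and limma-voom 7, whereas a fit of all 18 libraries together called 0 (3 at an unadjusted p below 0.05). Without nerve library 6 the rises were 7, with Cxcl14, Ccl7 and Cx3cl1 added, and without neurofibroma library 6 they were 2.

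Between MPNST and neurofibroma, 13 ligands rose and 1 fell. The rises included Ccl8, a monocyte attractant (110-fold), Ccl6, a ligand of CCR1 (62.4-fold), Cxcl14, a broadly expressed chemokine (55.5-fold), and Cxcl13, the attractant of B cells (37.2-fold). The ligand that fell was Ccl11 (3.66-fold). The 14 calls are 58.3% of the 24 ligands tested, beside 42% of all 16537 genes, of which 25.3% rose and 16.8% fell. The median log2 difference of the ligands was 2.14, beside 0.22 over all genes. Ranges of the 2 groups did not overlap for 3 ligands. Ccl6 and Ccl8 lay above (7.46% of all genes did) and Cxcl11 lay below (16%), although Cxcl11 was not called.

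Between MPNST and normal nerve, 12 ligands rose and none fell, with the largest fitted rises in Cxcl13 (173-fold), Ccl8 (125-fold), Cxcl14 (57.9-fold) and Ccl6 (51.5-fold). These 12 are 57.1% of the 21 ligands tested, beside 46% of all 16384 genes called and 27.6% that rose. The count of falls was 0 with edgeR also at an unadjusted p below 0.05, 0 with DESeq2 and 1, Ccl27a, with limma-voom. The median log2 difference was 3.26, beside 0.22 over all genes. Ccl6 and Ccl9 lay above every nerve library in every MPNST library, which 8.93% of all genes did. Both comparisons of MPNST use the same 6 tumours and both comparisons with nerve the same 6 nerves, so the lists of calls are not independent. Ccl9 was called in all 3 comparisons, and 10 ligands were called in both comparisons of MPNST.

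**Figure D2:**
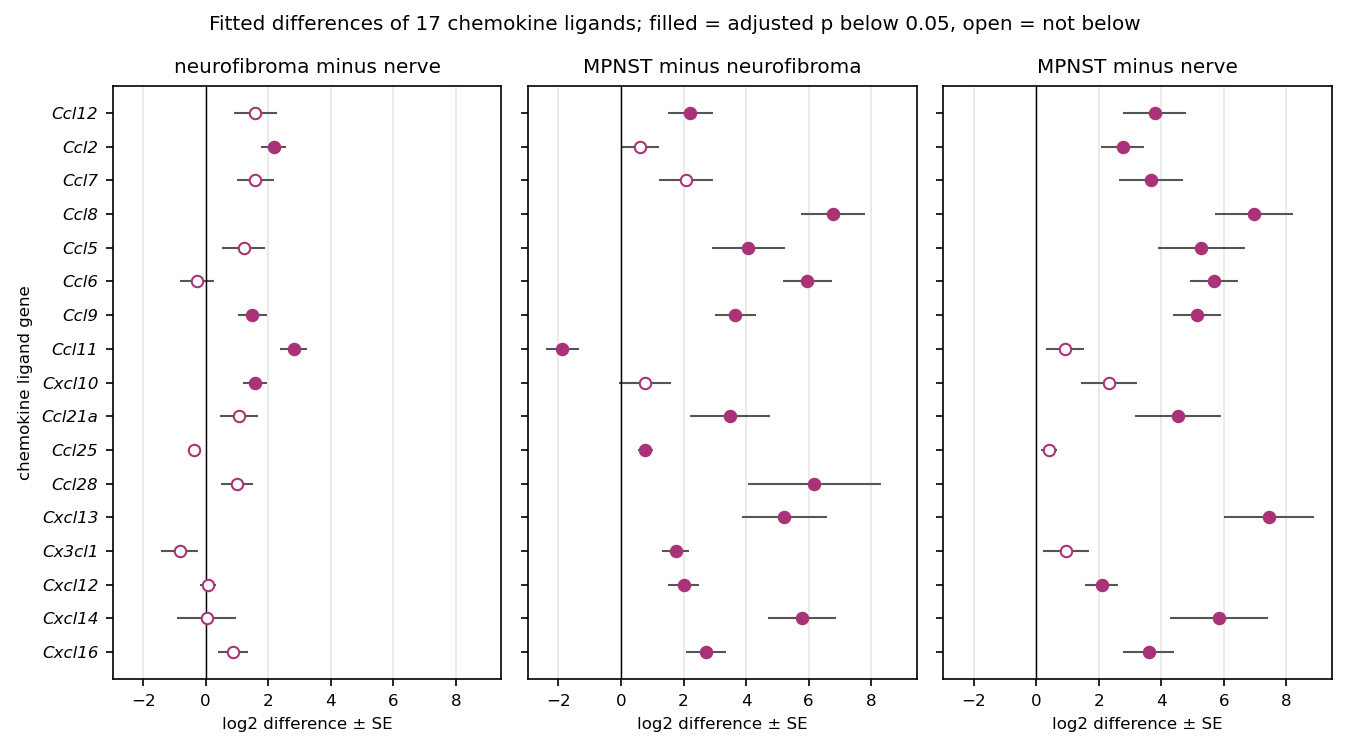
Fitted log2 differences (x axis) with their standard errors for the 17 ligands called in at least 1 comparison (y axis), in the 3 comparisons. Filled points passed the adjusted p below 0.05, and in both panels of MPNST most filled points lie right of 0, with Ccl11 the exception against neurofibroma.

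The monocyte attractants Ccl2, Ccl7, Ccl8 and Ccl12, named for their action on monocytes and among which Ccl2, Ccl7 and Ccl12 signal through CCR2, did not move as a block. Ccl2 lay at 0.292, 1.10 and 1.45 CPM in nerve, at 2.01, 5.21 and 6.05 in neurofibroma and at 1.11, 4.59 and 19.3 in MPNST. The nerve and neurofibroma ranges did not meet, while MPNST libraries 2 and 6 fell within the nerve range and library 5 lay above all others. Ccl2 rose in neurofibroma (log2 difference 2.17, SE 0.39, adjusted p = 0.00568) and also when MPNST was set against nerve (2.77, SE 0.69, adjusted p = 0.00657). Against neurofibroma the MPNST difference was 0.60 (SE 0.61, adjusted p = 0.45), and it was -0.07 without MPNST library 5.

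Ccl8, whose mouse protein is known to act on CCR8, showed another pattern. Its level was 0.0486, 0.204 and 1.97 CPM in nerve, 0.223, 0.561 and 0.885 in neurofibroma, and in the MPNST libraries 1.16, 27.9 and 186.5. Every MPNST library exceeded every neurofibroma library, by the least in library 6, and a single nerve library (3) reached into the MPNST range. The rise was 6.78 (SE 1.02, adjusted p = 0.000431) against neurofibroma and 6.96 (SE 1.26, adjusted p = 0.0011) against nerve. The gene was too low to be tested between neurofibroma and nerve.

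Ccl12 lay at 0.0486, 0.547 and 2.02 CPM in nerve, at 1.004, 2.39 and 4.92 in neurofibroma and at 0.530, 9.03 and 27.4 in MPNST. MPNST libraries 1, 3, 4 and 5 stood above all neurofibroma libraries, library 2 within them and library 6 below them. Ccl12 rose in MPNST against nerve (3.79, SE 1.01, adjusted p = 0.00985) and against neurofibroma (2.21, SE 0.72, adjusted p = 0.0273). The second call was lost on leaving out MPNST library 5 (1.76, adjusted p = 0.0644) or any of neurofibroma libraries 1, 4, 5 and 6, which gave adjusted p values between 0.0523 and 0.0603.

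Ccl7 lay at 0.0486, 0.668 and 1.69 CPM in nerve, at 0.781, 2.84 and 4.35 in neurofibroma and at 0.867, 4.53 and 45.0 in MPNST, where library 5 held the highest value and the next was 8.07. All groups overlapped. It rose in MPNST against nerve (3.67, SE 1.03, adjusted p = 0.0124), by 2.22 without MPNST library 5 (SE 0.77, adjusted p = 0.0392). The differences of neurofibroma from nerve (1.59, SE 0.58, adjusted p = 0.0832) and of MPNST from neurofibroma (2.08, SE 0.87, adjusted p = 0.0734) were not called. Of the 4 monocyte attractants, 1 of 3 tested thus rose in neurofibroma, 2 of 4 in MPNST against neurofibroma and 4 of 4 in MPNST against nerve. Of all genes, 7.94%, 25.3% and 27.6% rose in these comparisons.

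Most macrophage markers rose in MPNST too. The list of 12 summed to 76.9 to 218.5 CPM in nerve, 162.3 to 347.0 in neurofibroma, and in the MPNST libraries 156.0 to 2938. In the 3 comparisons, in the order given above, 2, 11 and 10 of its 12 members rose, beside 7.94%, 25.3% and 27.6% of all genes. By MPNST library, from 1 to 6, the list stood at 1884, 476.7, 496.6, 2138, 2938 and 156.0 CPM. The list and the 4 monocyte attractants were all highest in library 5 and lowest in library 6. In library 4, second highest for the list, Ccl8 (20.5 CPM) was lower than in libraries 1, 2, 3 and 5. The part of macrophages in the ligand results was not tested. In bulk tissue a change in the number of cells of a type and a change in RNA per cell cannot be told apart.

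**Figure D3:**
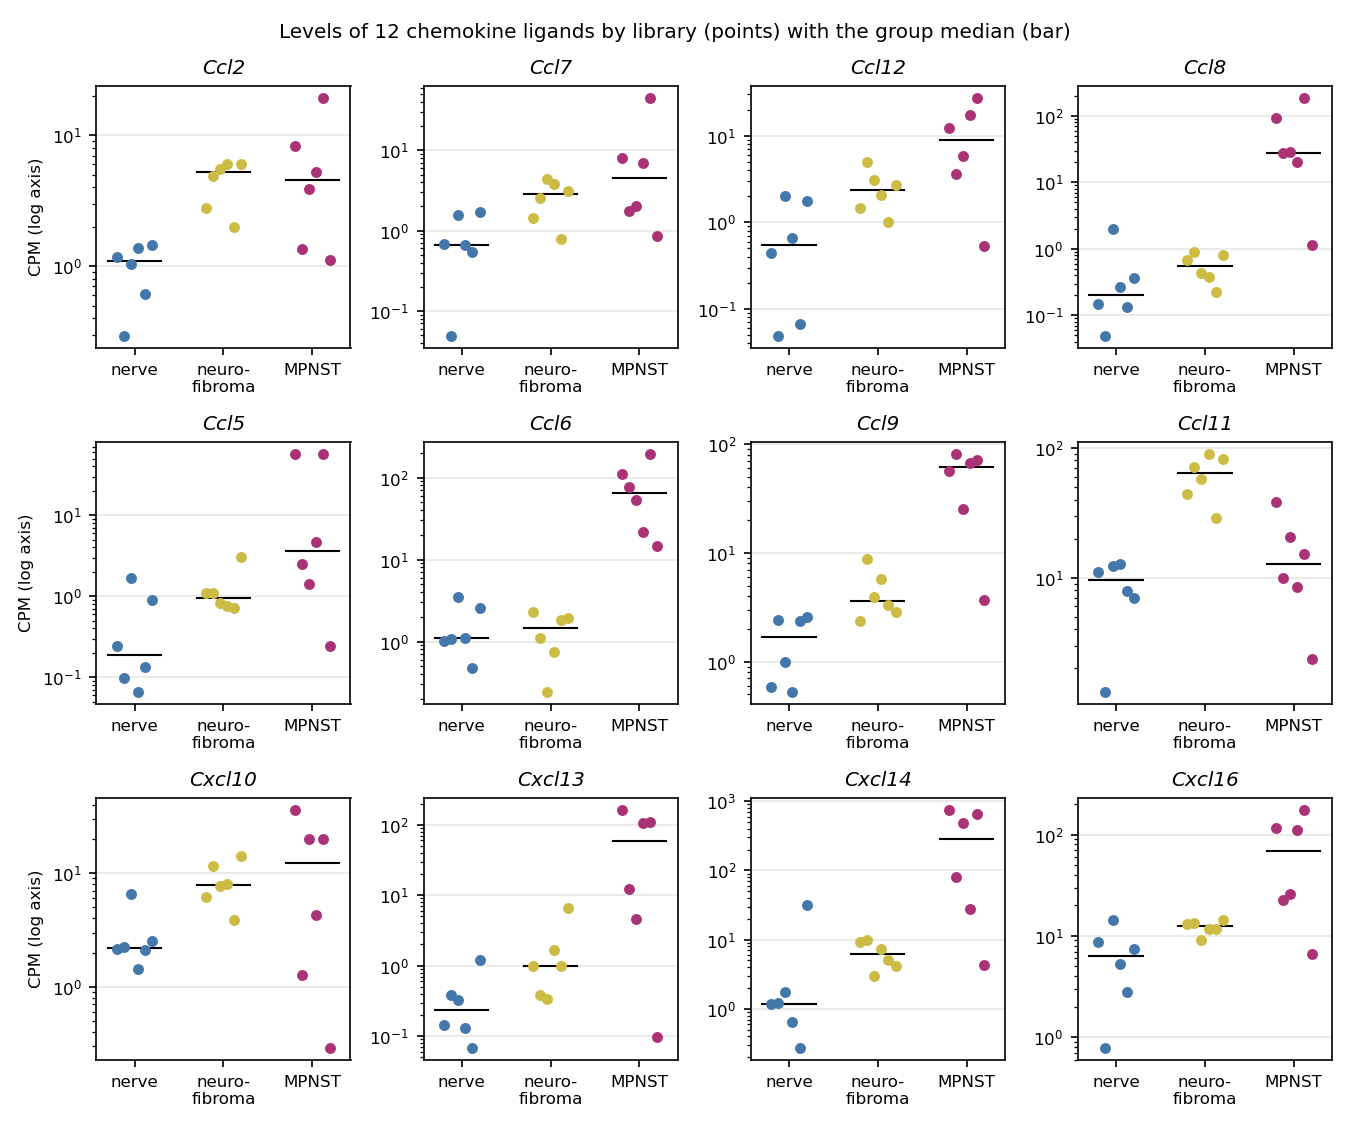
CPM of 12 ligands on log axes, with each point a library and each bar the median of a group. Ccl11 is highest in neurofibroma, Ccl2 separates nerve from neurofibroma, and in several panels a single low MPNST point, library 6, lies apart from the others.

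The inflammatory CC chemokines (Ccl3, Ccl4, Ccl5, Ccl6 and Ccl9) included the genes with the smallest adjusted p among ligands in both comparisons of MPNST. Ccl6, a rodent chemokine made by myeloid cells, lay at 0.474, 1.09 and 3.49 CPM in nerve, at 0.242, 1.47 and 2.31 in neurofibroma and at 14.5, 64.9 and 194.1 in MPNST. No MPNST library, library 6 included, came within the range of either other group. It rose by 5.96 (SE 0.78, adjusted p = 0.000174) against neurofibroma and by 5.69 (SE 0.77, adjusted p = 0.000184) against nerve. Between neurofibroma and nerve its difference was -0.28 (SE 0.54, adjusted p = 0.757). Among all alternatives run, its MPNST differences stayed between 5.16 and 6.45.

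Ccl9, another rodent ligand of CCR1, lay at 0.525, 1.68 and 2.59 CPM in nerve, at 2.36, 3.60 and 8.84 in neurofibroma and at 3.71, 61.6 and 81.4 in MPNST. The lowest MPNST value, in library 6, fell inside the neurofibroma range and the other 5 lay at 25.1 or above. It rose by 3.66 (SE 0.65, adjusted p = 0.0012) against neurofibroma and by 5.14 (SE 0.76, adjusted p = 0.000344) against nerve. The rise in neurofibroma (1.49, SE 0.46, adjusted p = 0.0492) stood at the threshold and was lost on leaving out any nerve library except 6 or any neurofibroma library except 1, with log2 differences of 1.18 to 1.64 and adjusted p from 0.0567 to 0.115.

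Ccl5, known as RANTES and made by activated T and NK cells, lay at 0.0656, 0.189 and 1.69 CPM in nerve, at 0.725, 0.951 and 3.07 in neurofibroma and at 0.241, 3.57 and 57.0 in MPNST. MPNST libraries 1 (56.9) and 5 (57.0) stood far above the other 4, which held 0.241 to 4.62, so the group overlapped both others. The gene rose by 4.07 (SE 1.16, adjusted p = 0.015) against neurofibroma and by 5.28 (SE 1.39, adjusted p = 0.0091) against nerve. T cell markers summed to 350.3 CPM in MPNST library 1, 104.2 in library 5 and 6.01 to 27.1 in the other 4, beside 3.35 to 9.08 in nerve and neurofibroma. All 6 tested markers of 9 rose against neurofibroma, beside 25.3% of all genes. Between neurofibroma and nerve only 1 of the 9 passed the filter on low counts. The others were thus tested here with the help of MPNST libraries, which favours rises, and the count is not read as a result. NK cell markers stood at 59.7 and 56.4 CPM in libraries 1 and 5 and at 0.963 to 9.62 in the others. The part of these cells in the result was not tested.

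Ccl3 and Ccl4, which encode MIP-1 alpha and beta, were too low to be tested. Ccl3 reached 3.09 CPM and Ccl4 5.85 CPM in MPNST library 5, against at most 0.344 and 0.279 in any nerve or neurofibroma library. In this role, 1 of 3 tested ligands rose in neurofibroma and 3 of 3 in each comparison of MPNST. Beside these, 7.94% of all genes rose in neurofibroma, 25.3% in MPNST against neurofibroma and 27.6% against nerve.

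The eotaxins attract eosinophils through CCR3. Ccl11 (eotaxin) lay at 1.31, 9.53 and 12.7 CPM in nerve, at 28.9, 64.1 and 89.9 in neurofibroma and at 2.36, 12.7 and 38.1 in MPNST. All 6 neurofibroma libraries lay above all nerve libraries, and only MPNST library 1 reached the neurofibroma range. The gene rose in neurofibroma (2.81, SE 0.43, adjusted p = 0.00302) and fell by 1.87 on the log2 scale in MPNST against neurofibroma (SE 0.53, adjusted p = 0.0142). MPNST and nerve differed by 0.93 (SE 0.61, adjusted p = 0.229). The fall was called under all 22 alternatives run at an adjusted p below 0.05, with log2 differences of -2.29 to -1.53. It was not called at an adjusted p below 0.01. The rise kept its size under all 21 alternatives (2.57 to 2.96), with its call lost in the fit of all 18 libraries.

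Ccl11 stands between Ccl7 and Ccl12 in the run on chromosome 11, and the 5 tested genes of that run had different signs and sizes in MPNST against neurofibroma: 0.60 for Ccl2, 2.08 for Ccl7, -1.87 for Ccl11, 2.21 for Ccl12 and 6.78 for Ccl8. Markers of the cell that eotaxins attract were scarce. The 7 eosinophil markers summed to at most 0.491 CPM in nerve, 1.002 in neurofibroma, and in the MPNST libraries 5.73, none passed the filter on low counts, and the receptor gene Ccr3 was at a count of 0 in all 12 nerve and neurofibroma libraries. Fibroblast markers, which rose in neurofibroma for 5 of 8 members (7.94% of all genes rose), summed to 164.8 to 1023 CPM in nerve, 1169 to 2701 in neurofibroma, and in the MPNST libraries 714.3 to 11119. In MPNST against neurofibroma 4 of the 8 rose and 0 fell, beside 25.3% and 16.8% of all genes, with a median log2 difference of 2.81. Dcn (-0.07, SE 0.78, adjusted p = 0.952) and Lum (-0.34, SE 0.85, adjusted p = 0.77) were among the 4 not called. The part of fibroblasts in the Ccl11 results was not tested. Ccl24, the second eotaxin, stayed between 0.0382 and 1.09 CPM in all libraries and was called in neither comparison in which it was tested.

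The CXCR3 ligands Cxcl9, Cxcl10 and Cxcl11 are induced by interferons and attract activated T and NK cells. Cxcl10 lay at 1.44, 2.19 and 6.55 CPM in nerve, at 3.90, 7.89 and 14.1 in neurofibroma and at 0.289, 12.2 and 36.1 in MPNST. In neurofibroma 4 of the 6 libraries lay above all nerve libraries. In MPNST libraries 1, 3 and 5 lay above neurofibroma and libraries 2 and 6 below every nerve library. The gene rose in neurofibroma (1.57, SE 0.39, adjusted p = 0.0203), a call lost without neurofibroma library 6 (1.35, adjusted p = 0.0505). In MPNST its differences were 0.76 from neurofibroma (SE 0.83, adjusted p = 0.484) and 2.32 from nerve (SE 0.90, adjusted p = 0.0506).

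Cxcl9 was not called in any comparison. It ranged from 0.146 to 14.8 CPM in nerve, 0.214 to 12.3 in neurofibroma, and in the MPNST libraries 1.65 to 134.7, with the highest values in nerve library 3 and MPNST library 1. Cxcl11 went the other way from its neighbours: it stayed between 0 and 2.24 CPM in MPNST, below all 6 neurofibroma libraries (2.61 to 3.51), yet its log2 difference of -1.74 was not called (SE 0.76, adjusted p = 0.0834). DESeq2 and limma-voom both called it lower. As a role, 1 of 3 rose in neurofibroma and 0 of 3 in either comparison of MPNST by edgeR, while DESeq2 called Cxcl9 higher in both and Cxcl10 higher against nerve. By edgeR 7.94% of all genes rose in neurofibroma, 25.3% in MPNST against neurofibroma and 27.6% against nerve.

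The chemokines of lymphoid tissue and epithelia hold the ligands of CCR7 (Ccl19 and the Ccl21 genes), CXCR5 (Cxcl13), CCR9 (Ccl25) and CCR10 (Ccl27a and Ccl28). Cxcl13, which guides B cells into follicles, lay at 0.0677, 0.237 and 1.21 CPM in nerve, at 0.338, 0.993 and 6.64 in neurofibroma and at 0.0963, 58.9 and 162.3 in MPNST. Libraries 1, 4 and 5 held 105.5 to 162.3 CPM, libraries 2 and 3 held 12.3 and 4.66, and library 6 lay within the nerve range. Cxcl13 rose by 5.22 (SE 1.36, adjusted p = 0.00958) against neurofibroma and by 7.44 (SE 1.45, adjusted p = 0.00174) against nerve. It was too low for a test between neurofibroma and nerve. B and plasma cell markers, like Cxcl13, were highest in library 1 and lowest in libraries 3 and 6. From library 1 to 6 they stood at 1790, 171.3, 15.4, 225.5, 120.4 and 3.61 CPM, and the receptor gene Cxcr5 reached 30.3 CPM in library 1 and at most 1.75 in the other 5. Their part in the result was not tested.

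Ccl21a, which guides cells with CCR7 into lymph nodes, lay at 0.302, 0.815 and 3.33 CPM in nerve, at 0.786, 1.74 and 7.19 in neurofibroma and at 0, 21.0 and 66.0 in MPNST. The MPNST libraries fell apart, with 38.6 to 66.0 CPM in libraries 1, 3 and 4 and 0 to 3.49 in libraries 2, 5 and 6. The gene rose by 4.53 against nerve (SE 1.37, adjusted p = 0.018). Its rise of 3.49 against neurofibroma (SE 1.29, adjusted p = 0.0458) was lost without any 1 of MPNST libraries 1, 3 and 4 or of neurofibroma libraries 1, 3, 4, 5 and 6, with adjusted p of 0.0687 to 0.0896. Ccl21d, not called, reached 40.1 and 37.0 CPM in MPNST libraries 1 and 4 and lay between 2.16 and 9.49 in all nerve and neurofibroma libraries. Summed over the Ccl21 rows, the level was 2.91, 6.33 and 10.5 CPM in nerve, 2.95, 7.40 and 11.1 in neurofibroma, and in the MPNST libraries 0.658, 27.2 and 106.1, so the medians of nerve and neurofibroma were closer than for Ccl21a alone. With the sum tested in place of Ccl21a, the rise was not called against neurofibroma (2.60, SE 1.04, adjusted p = 0.0621) and was still called against nerve (2.75, SE 1.05, adjusted p = 0.0488). The call against neurofibroma was lost with limma-voom and with no filter on low counts too. Lymphatic endothelium, a known source of Ccl21, had a list of 6 markers, 5 of them tested, that summed to 60.03 to 274.7 CPM over the nerves, 290.1 to 537.1 over the neurofibromas and 56.0 to 282.2 over MPNST. Its members moved in different directions. In neurofibroma Reln (1.53, SE 0.36, adjusted p = 0.0172) and Pdpn (0.69, SE 0.21, adjusted p = 0.0426) rose, and Reln alone made up 239.2 to 495.0 CPM. In MPNST against neurofibroma Prox1 (4.64, SE 1.47, adjusted p = 0.024) and Flt4 (2.60, SE 0.56, adjusted p = 0.00364) rose and Reln fell by 3.23 on the log2 scale (SE 0.78, adjusted p = 0.00624). The part of these cells in the Ccl21a result was not tested.

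Ccl28, a mucosal chemokine made by epithelia such as salivary gland, was called higher in MPNST than in neurofibroma (6.18, SE 2.13, adjusted p = 0.0346) through 1 library. It lay at 0.181, 0.421 and 1.25 CPM in nerve, at 0.501, 0.818 and 2.22 in neurofibroma and at 0.0382, 0.385 and 363.8 in MPNST. MPNST library 2 held the 363.8 CPM and the next highest MPNST library 1.69. The call was also lost without any 1 neurofibroma library (adjusted p from 0.0579 to 0.0701). Without MPNST library 2 the difference was -0.87 (SE 0.72, adjusted p = 0.346), and without libraries 2 and 6 the gene was called lower in MPNST (-1.91, SE 0.63, adjusted p = 0.0234). Library 2 is the library with salivary gland markers, and it alone also held Cxcl17, another mucosal chemokine, at 53.6 CPM against at most 0.338 elsewhere.

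Ccl25, best known from thymus and gut, varied the least of the called ligands. It lay at 3.66, 5.81 and 7.54 CPM in nerve, at 3.78, 4.24 and 6.26 in neurofibroma and at 5.19, 7.41 and 9.01 in MPNST. The rise of 0.78 in MPNST against neurofibroma (SE 0.24, adjusted p = 0.0207) was lost without neurofibroma library 1, 3 or 4 (adjusted p from 0.0521 to 0.0537). Its MPNST values overlapped those of nerve, and that difference was not called (0.41, SE 0.25, adjusted p = 0.201).

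Ccl19 and Ccl27a were tested and not called. Ccl19 reached 36.0 CPM in MPNST library 1, against at most 1.69 in all other libraries. Ccl27a, a chemokine known from skin, ran from 6.36 to 20.3 CPM over nerve and neurofibroma and from 1.74 to 4.14 in MPNST libraries 1 to 5, with 18 in library 6. Without MPNST libraries 2 and 6 it was called lower against neurofibroma (-1.85, SE 0.28, adjusted p = 0.000293) and against nerve (-1.89, SE 0.41, adjusted p = 0.00263). In this role, 0 of 6 tested ligands rose in neurofibroma, 4 of 7 in MPNST against neurofibroma and 2 of 6 in MPNST against nerve. The shares of all genes that rose were 7.94%, 25.3% and 27.6%.

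The broadly expressed chemokines include Cxcl12, the ligand of CXCR4 made by stromal cells, Cxcl14, made by epithelia and fibroblasts, and Cxcl16 and Cx3cl1, which are made as membrane proteins and are shed by ADAM proteases. Cxcl12 lay at 22.4, 31.7 and 60.3 CPM in nerve, at 28.8, 34.3 and 61.1 in neurofibroma and at 15.8, 134.6 and 268.5 in MPNST. MPNST libraries 1 to 5 lay above every nerve and neurofibroma library and library 6 below every one of them. It rose by 2.01 (SE 0.50, adjusted p = 0.00734) against neurofibroma and by 2.09 (SE 0.52, adjusted p = 0.00662) against nerve, while nerve and neurofibroma differed by 0.08 (SE 0.25, adjusted p = 0.847).

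Cxcl14 lay at 0.271, 1.19 and 31.2 CPM in nerve, at 2.996, 6.18 and 9.73 in neurofibroma and at 4.33, 283.3 and 747.7 in MPNST. Nerve library 6, the one with the most oligodendrocyte and astrocyte markers, held the 31.2 CPM, and the other 5 nerve libraries held 0.271 to 1.75, below every neurofibroma library. MPNST libraries 1, 3 and 5 held 485.3 to 747.7 CPM and library 6 lay within neurofibroma. Cxcl14 rose by 5.79 (SE 1.09, adjusted p = 0.00159) against neurofibroma and by 5.85 (SE 1.56, adjusted p = 0.00964) against nerve. Between neurofibroma and nerve the difference was 0.03 (SE 0.94, adjusted p = 0.986) with all libraries and 2.62 (SE 0.44, adjusted p = 0.00253) without nerve library 6.

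Cxcl16, which binds CXCR6, lay at 0.778, 6.37 and 14.4 CPM in nerve, at 9.08, 12.4 and 14.3 in neurofibroma and at 6.60, 68.2 and 175.4 in MPNST. MPNST libraries 1 to 5 lay above all nerve and neurofibroma libraries, with 22.7 CPM the lowest of them. The rise was 2.72 (SE 0.63, adjusted p = 0.00524) against neurofibroma and 3.59 (SE 0.83, adjusted p = 0.0046) against nerve.

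Cx3cl1 (fractalkine), made by neurons and endothelium, lay at 5.84, 6.83 and 66.2 CPM in nerve, at 8.26, 9.81 and 11.5 in neurofibroma and at 9.68, 21.5 and 86.3 in MPNST. The 66.2 CPM came from nerve library 6 and the 86.3 from MPNST library 4. It rose in MPNST against neurofibroma (1.75, SE 0.44, adjusted p = 0.00782), by 1.15 without MPNST library 4 (SE 0.27, adjusted p = 0.00653), and was not called against nerve (0.95, SE 0.73, adjusted p = 0.306). Neurofibroma minus nerve was -0.83 (SE 0.60, adjusted p = 0.367) and turned to 0.47 (SE 0.15, adjusted p = 0.0474) without nerve library 6. All 4 tested ligands of this role rose in MPNST against neurofibroma and 3 of 4 against nerve, and none of the 4 was called between neurofibroma and nerve (0 of 4 also at an unadjusted p below 0.05 with edgeR, 0 of 4 with DESeq2 and 1, Cxcl14, with limma-voom). Of all genes, 25.3% rose in MPNST against neurofibroma and 27.6% against nerve, and 13.9% were called between neurofibroma and nerve. Fibroblast markers summed to 11119, 1326, 8645, 6117, 7067 and 714.3 CPM in MPNST libraries 1 to 6 and endothelial markers to 798.9, 248.3, 559.9, 139.7, 465.6 and 130.2. Sensory neuron markers summed to 18.5, 5.23, 49.9, 8.40, 53.0 and 1910 CPM in the same libraries. The part of these 3 cell types in these results was not tested.

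The ELR chemokines, which attract neutrophils through CXCR2, were low throughout. Cxcl1 was the only member tested, in MPNST against neurofibroma alone, and was not called (0.79, SE 0.65, adjusted p = 0.341). Its highest values were 1.36 CPM in nerve, 1.55 in neurofibroma and 3.01, from library 2, in MPNST. Cxcl2, Cxcl3 and Cxcl5 never passed 0.482, 0.0658 and 1.20 CPM. Cxcl15, known from lung, had counts in MPNST library 1 alone (3.33 CPM). Neutrophil markers summed to 1.62 to 13.6 CPM in nerve, 3.32 to 15.5 in neurofibroma, and in the MPNST libraries 2.74 to 151.8, highest in library 4, where Cxcl1 was at 0.611 CPM. Mmp9, also counted below among genes that process chemokines, alone reached 124.6 CPM in MPNST, a level that the whole list passed in library 4 only. Csf3r, S100a8 and S100a9 reached at most 22.95, 5.43 and 4.17 CPM in MPNST. Of these 4 tested markers, Mmp9 and Csf3r rose in MPNST against neurofibroma (25.3% of all genes did) and 2 were not called.

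The 4 genes grouped here as ligands of CCR4, CCR6 and CCR8 (Ccl1, Ccl17, Ccl20 and Ccl22) and the XCR1 ligand Xcl1 did not pass the filter on low counts in any pair of groups. Ccl8, which also acts on CCR8, was tested and is described with the monocyte attractants. In the fit of all 18 libraries, which tested 26 ligands, Ccl17 and Ccl22 were called in both comparisons of MPNST. Ccl17 and Ccl22, both ligands of CCR4 made by dendritic cells and macrophages, reached 14.7 and 14.3 CPM in MPNST library 5 and 4.11 and 11.98 in library 1. Xcl1, which attracts cross-presenting dendritic cells through XCR1, held 8.75 and 4.74 CPM in those libraries. In nerve and neurofibroma these 3 genes never passed 0.663, 1.22 and 0.387 CPM. Dendritic cell markers stood at 334.3 CPM in library 5 and 212.4 in library 1, against 29.0 to 62.1 in the other MPNST libraries. Ccl1 and Ccl20 never passed 0.573 and 0.121 CPM.

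Among MPNST, the highest and lowest values of many ligands fell in the same libraries. Over the 24 tested ligands, MPNST library 1 held the highest MPNST value for 11 and library 5 for 7, whereas library 6 held the lowest for 17. Library 1 exceeded every nerve and neurofibroma library for 16 of the 24 ligands, libraries 4 and 5 for 13 each, libraries 2 and 3 for 10 each and library 6 for 1, Ccl6. These counts were not made over all genes, so whether this order of libraries is particular to the ligands was not tested.

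**Figure D4:**
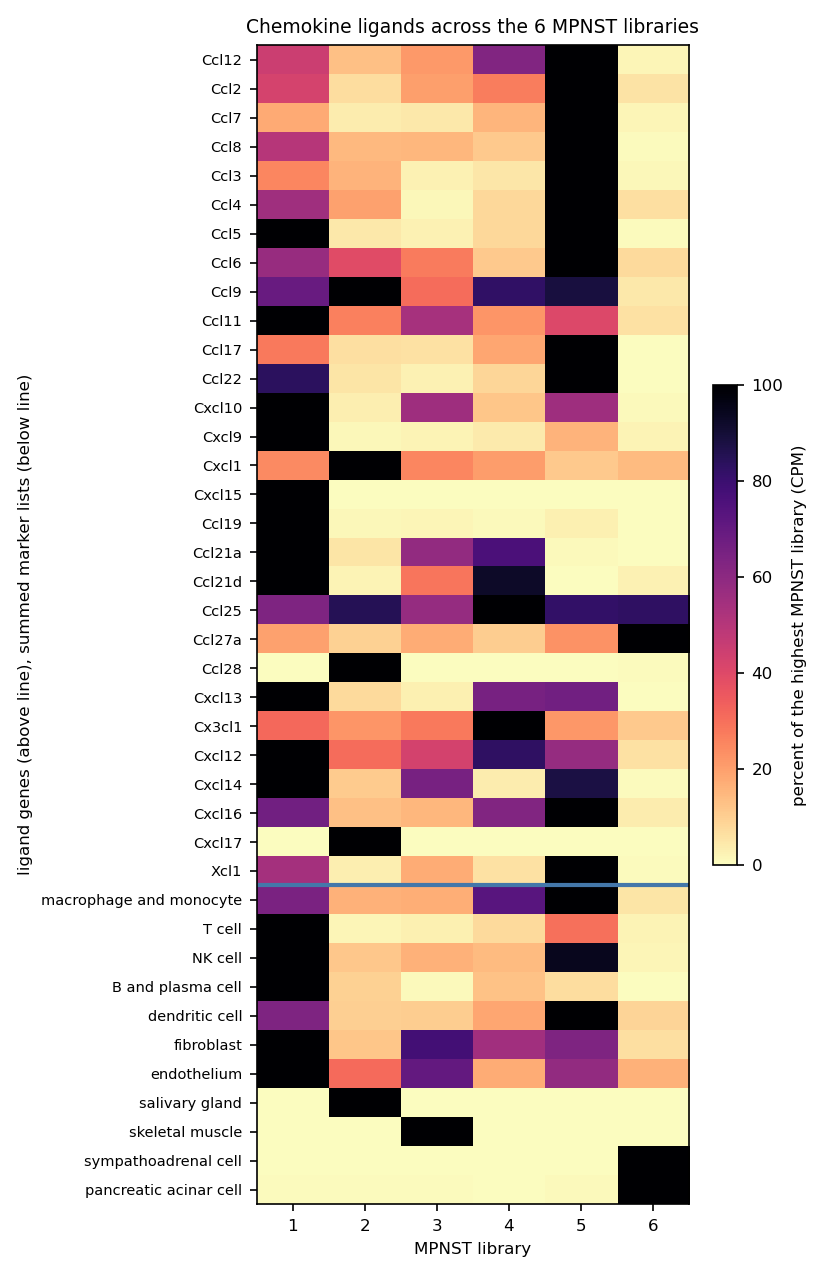
CPM of ligands (above the line) and summed CPM of marker lists (below it) in the 6 MPNST libraries, each as a percent of the highest MPNST library. Libraries 1 and 5 share most dark ligand cells with the leukocyte lists, and library 2 is dark for Ccl28, Cxcl17 and the salivary gland list.

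Without MPNST libraries 2 and 6, which held the salivary gland and the sympathoadrenal and pancreatic markers, 27 ligands were tested against neurofibroma, 20 rose and 4 fell, beside 59.2% of all genes called. All 14 ligands called with the 6 libraries were among them, with Ccl28 now lower instead of higher. The added rises were Ccl7 (2.57), Ccl17 (4.07), Ccl22 (3.73), Ccl19 (3.73), Ccl21d (2.27), Cxcl9 (3.20), Cxcl10 (1.28) and Xcl1 (4.36), and the added falls Ccl27a (-1.85) and Cxcl11 (-1.25), with adjusted p from 0.000293 to 0.0482. Against nerve, 17 rose and 1 fell of 24 tested, beside 60.7% of all genes called. Leaving out library 3 as well gave 20 rises and 4 falls of 28 tested against neurofibroma (62.8% of all genes called) and 18 and 1 of 25 against nerve (62.4%). With all 6 MPNST libraries, 42% of all genes were called against neurofibroma and 46% against nerve. The share of all genes called was thus also larger without these libraries.

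**Figure D5:**
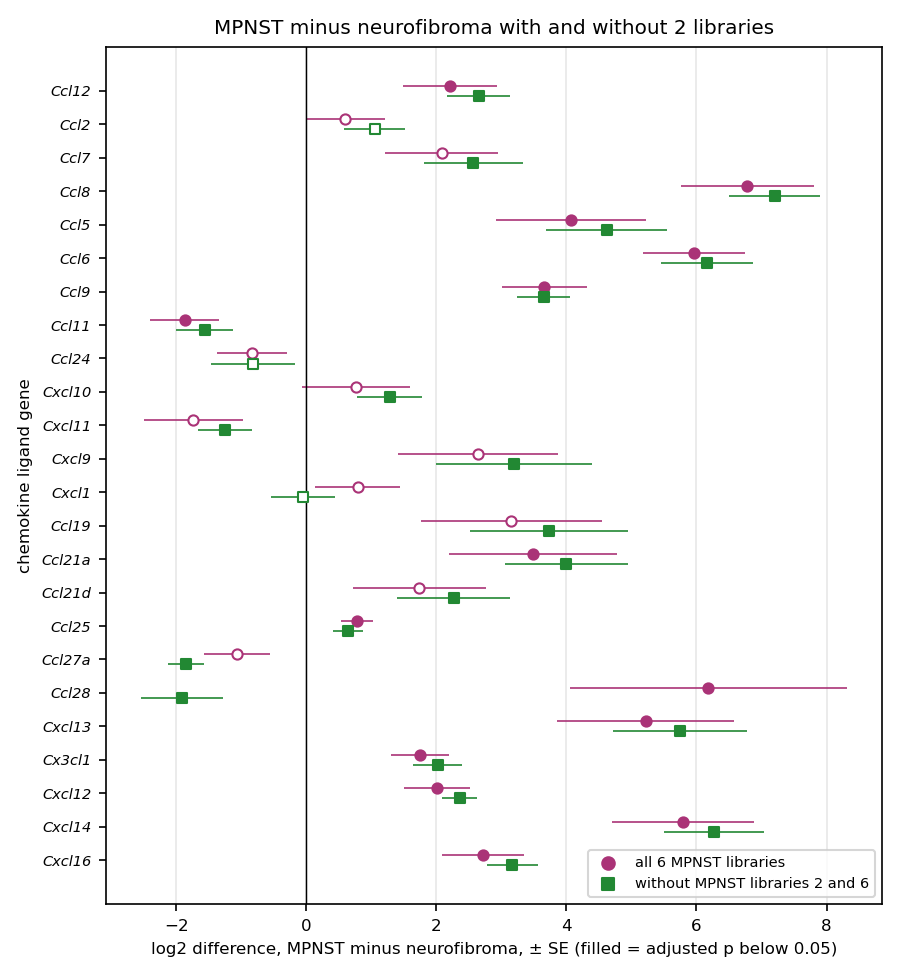
Log2 differences of MPNST minus neurofibroma (x axis) with standard errors for the 24 tested ligands (y axis), with all 6 MPNST libraries (circles) and without libraries 2 and 6 (squares). Filled symbols passed the adjusted p below 0.05, and apart from Ccl28, which crosses from 6.18 to -1.91, and Cxcl1, which crosses from 0.79 to -0.05, each pair of symbols lies on the same side of 0.

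Of 18 genes for signalling chemokine receptors, 4 or 5 were high enough to be tested. Cx3cr1, the receptor of Cx3cl1 on monocytes and macrophages, rose in neurofibroma (1.42, SE 0.43, adjusted p = 0.0451), where 1 of 4 receptors rose, beside 7.94% of all genes. In MPNST against neurofibroma 4 of 5 rose (25.3% of all genes did): Ccr2, the receptor of Ccl2 (4.52, SE 0.78, adjusted p = 0.001), Ccr1 (4.01, SE 0.69, adjusted p = 0.00096), Cxcr6 (2.51, SE 0.92, adjusted p = 0.0445) and Cx3cr1 (1.75, SE 0.61, adjusted p = 0.0358). Cxcr6 was too low to be tested in the other comparisons and entered this count with the help of MPNST libraries, which favours a rise. All 4 tested rose against nerve (27.6% of all genes did), from 1.89 for Cxcr4, the receptor of Cxcl12 (SE 0.71, adjusted p = 0.0456), to 5.30 for Ccr1 (SE 0.92, adjusted p = 0.000878). The calls of Ccr1 and Ccr2 held under every alternative. The call of Cx3cr1 in neurofibroma was lost under 11 of 21 alternatives and against neurofibroma under 10 of 22, that of Cxcr6 under 9 of 21 and that of Cxcr4 under 11 of 22, each by leaving out single libraries among others. Ccr2 lay at 157.4, 55.5, 41.2, 136.5, 288.4 and 3.56 CPM in MPNST libraries 1 to 6, against 1.12 to 7.47 over nerve and neurofibroma, so library 6 alone fell within their range.

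Some receptors too low to be tested were also highest in MPNST libraries 1 and 5. Ccr7, which binds Ccl19 and Ccl21, stood at 24.5 and 15.9 CPM, Cxcr3 at 22.8 and 11.1 and Xcr1 at 13.5 and 32.1, against at most 1.68, 1.41 and 2.44 in the other MPNST libraries. Ccr7 and Xcr1 are also members of the dendritic cell list. Among atypical receptors, which bind chemokines without the usual signalling, Ackr1, found on venular endothelium, fell by 2.53 on the log2 scale in MPNST against neurofibroma (SE 0.70, adjusted p = 0.0128) and by 2.17 against nerve (SE 0.68, adjusted p = 0.0212), a call lost without MPNST libraries 2, 3 and 6. Its level was 42.3 to 65.5 CPM in nerve, 52.6 to 120.1 in neurofibroma, and in the MPNST libraries 0.649 to 29.9, so MPNST did not overlap either group. Ccrl2 rose by 1.46 (SE 0.47, adjusted p = 0.0258), a call lost under 8 of 22 alternatives, and by 2.34 (SE 0.55, adjusted p = 0.00481). Of the platelet chemokine genes Pf4 and Ppbp, which the rule on names leaves out, Pf4 was not called in any comparison and Ppbp, which reached 6.70 CPM in nerve library 6, was not tested.

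Genes that process or present chemokines rose in part in neurofibroma already. Of 11 tested, 6 rose there (7.94% of all genes did), among them the matrix metalloproteinase gene Mmp2 (2.18, SE 0.39, adjusted p = 0.00566) and Adam17, a sheddase of Cx3cl1 and Cxcl16 (0.89, SE 0.16, adjusted p = 0.00592). In MPNST 8 of 12 rose against each other group (25.3% of all genes rose against neurofibroma and 27.6% against nerve), with Sdc1, a heparan sulphate proteoglycan, at 1.65 (SE 0.31, adjusted p = 0.00161) against neurofibroma and 2.25 (SE 0.31, adjusted p = 0.000229) against nerve. Mmp12, among the 8 in both, was too low to be tested between neurofibroma and nerve and entered with the help of MPNST libraries. Adam17 rose by 1.16 against neurofibroma (SE 0.30, adjusted p = 0.00885) and by 2.04 against nerve (SE 0.33, adjusted p = 0.00057). Adam10, the other sheddase, fell by 1.12 on the log2 scale against neurofibroma (SE 0.22, adjusted p = 0.00194) and was not called against nerve (-0.51, SE 0.27, adjusted p = 0.137).

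Downstream of the receptors, 1 of 12 signalling genes rose and 2 fell in neurofibroma (7.94% and 6% of all genes did), with Dock2, a leukocyte activator of Rac, at 0.80 (SE 0.18, adjusted p = 0.0157) and the receptor kinase gene Grk2 at -0.57 (SE 0.11, adjusted p = 0.00732). In MPNST 6 rose and 2 fell against neurofibroma (25.3% and 16.8% of all genes did) and 7 and 2 against nerve (27.6% and 18.4%). The smallest adjusted p was that of Gnai3, a G protein subunit (0.69, SE 0.15, adjusted p = 0.00367, and 0.93, SE 0.16, adjusted p = 0.000877), and the largest rise that of Rac2, a leukocyte GTPase (3.11, SE 0.91, adjusted p = 0.017, and 4.61, SE 0.92, adjusted p = 0.00196). Of 15 cytokines that induce chemokines, 3 or 4 were tested. In neurofibroma Tgfb1 (0.88, SE 0.28, adjusted p = 0.0534), Il1b (1.83, SE 0.69, adjusted p = 0.0893) and Csf1 (0.31, SE 0.19, adjusted p = 0.274) were not called. All 4 tested rose in MPNST against neurofibroma (25.3% of all genes did), among them Tgfb1 (2.44, SE 0.43, adjusted p = 0.00117) and Ltb, lymphotoxin beta (4.79, SE 1.30, adjusted p = 0.0117). Ltb was too low to be tested in the other comparisons and entered this count with the help of MPNST libraries, which favours a rise. Against nerve 3 of 3 rose (27.6% of all genes did), with Il1b at 4.25 (SE 0.86, adjusted p = 0.00215).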

How the data were processed

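Poly(A) RNA had been sequenced from 18 libraries, 6 per group, prepared with the KAPA Stranded mRNAseq kit, per the labels' protocols. The authors deposited a table of estimated counts per gene made with Salmon 1.4.0 on GRCm39, per the submitters' processing notes, which also name FastQC and DESeq2. For the annotation release, the settings and the strand, the sources used here give nothing. Of all values 46.7% were not whole, and all were rounded before testing. No row lacked a gene name (0), 0 columns lacked a sample, and no 2 libraries of a group were alike (lowest chi-square per degree of freedom 17.2).

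Only the 12 libraries of the groups compared entered a fit, made in R 4.3.3 by the two-sided quasi-likelihood test of edgeR 4.0.16 after filterByExpr and TMM scaling, with Benjamini-Hochberg adjustment over all genes tested. Genes with an adjusted p below 0.05 were called. Standard errors were the log2 difference divided by the square root of F. CPM used TMM-scaled totals over all 18 libraries. The tests were tested on simulated data. Alternatives used DESeq2 1.42.0, limma 3.58.1 (voom with quality weights), a robust fit, other scalings, other filters on low counts (none, or at least 1 CPM in 6 libraries), 1 fit of all libraries, an adjusted p below 0.01, and fits without single libraries or without those that stood apart. Where alternatives are counted for a gene, the threshold of 0.01 is left out. Summing the Ccl21 genes was added after seeing the data.

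Ligands called in at least 1 comparison are described in full and the others by ranges and counts. The ligands and gene lists were chosen with earlier results of these data known. Results for 1 receptor gene are not reported here.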

Additional observations from a re-analysis of the deposited data

Results flagged for a closer look

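Within each group of 6 libraries, a ligand with a level of at least 1 CPM in its highest library was examined for a highest or lowest library standing apart, by Dixon's test at its 95% critical value. Of 79 such groups 25 were picked out, all on the high side. Gaps were taken on CPM without logs, which leaves little room for a low library to stand apart. The side is thus not read as a result. Chance picks about 1 in 20 groups, but that rate does not apply here, since groups entered by their highest value.

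In MPNST, library 1 stood apart for Cxcl9 (134.7 CPM), Ccl19 (36.0 CPM) and Cxcl15 (3.33 CPM). Library 2 did so for Ccl28 (363.8 CPM), Cxcl17 (53.6 CPM) and Cxcl1 (3.005 CPM). Library 5 did so for Ccl7 (44.99 CPM), Ccl17 (14.67 CPM) and Ccl3 (3.09 CPM), library 4 for Cx3cl1 (86.3 CPM) and library 6 for Ccl27a (18 CPM).

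In nerve, library 6 was set apart for Cx3cl1 (66.2 CPM), Cxcl14 (31.2 CPM) and Cxcl13 (1.21 CPM). Library 3 was so for Cxcl9 (14.8 CPM), Cxcl10 (6.55 CPM), Ccl21a (3.33 CPM) and Ccl8 (1.965 CPM), and library 2 for Cxcl1 (1.36 CPM). In neurofibroma, library 6 was set apart for Cxcl13 (6.64 CPM), Ccl25 (6.26 CPM) and Ccl5 (3.07 CPM), library 1 for Cxcl12 (61.1 CPM), library 2 for Ccl21a (7.19 CPM) and library 3 for Cxcl1 (1.55 CPM).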

How the results depend on the processing

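Of the ligand calls, 10 of 14 in MPNST against neurofibroma and 12 of 12 in MPNST against nerve held under every alternative run at an adjusted p below 0.05, against 0 of 4 in neurofibroma against nerve, where the fit of all 18 libraries called none. No paired analysis was possible because the groups differ in genotype and the labels give no replicate numbers that the groups share. Low counts kept 14 of 38 ligands out of all 3 comparisons as fitted on pairs of groups with every library. Some of these were tested under alternatives, such as Ccl17 and Ccl22 in the fit of all 18 libraries.

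For neurofibroma against nerve, all genes called numbered 2295, and 3509 with DESeq2, 4026 with limma-voom, 1438 with no filter on low counts, 2 in the fit of all 18 libraries and 520 at an adjusted p below 0.01. Ligands called higher numbered 7 with limma-voom, 0 in the fit of all libraries (3 at an unadjusted p below 0.05) and 2 at the stricter threshold. Leaving out 1 library gave 2 to 7 ligands higher (7 without nerve library 6, 2 without neurofibroma library 6), 0 to 0 lower and 1147 to 3817 genes.

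For MPNST against neurofibroma, ligands called lower numbered 2 with DESeq2, 3 with limma-voom, 2 in the fit of all libraries, 4 without MPNST libraries 2 and 6, 4 without libraries 2, 3 and 6, and 0 at the stricter threshold. Ligands called higher numbered 20 without libraries 2 and 6, 20 without libraries 2, 3 and 6, and 8 at the stricter threshold. All genes called numbered 11247 without libraries 2, 3 and 6 and 4063 at the stricter threshold. Leaving out 1 library gave 10 to 17 ligands higher, 1 to 3 lower (3 without MPNST library 1 or 6) and 5899 to 9123 genes.

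For MPNST against nerve, 1 ligand was called lower with limma-voom, 1 without MPNST libraries 2 and 6 and 1 without libraries 2, 3 and 6, and 4633 genes were called at the stricter threshold. Leaving out 1 library gave 12 to 15 ligands higher, 0 to 1 lower (1 without MPNST library 6) and 6508 to 9447 genes.

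Some log2 differences changed sign. Between neurofibroma and nerve, that of Ccl6 became 0.10 without nerve library 3, that of Cx3cl1 0.31 with limma-voom, 0.47 without nerve library 6 and 0.48 without it and neurofibroma library 1, and that of Cxcl12 -0.04 without nerve library 4 and -0.10 without neurofibroma library 1. The difference of Cxcl14 became -0.19, -0.19, -0.16, -0.21 and -0.22 without nerve library 1, 2, 3, 4 or 5 and -0.10, -0.13 and -0.01 without neurofibroma library 1, 2 or 4. Between MPNST and neurofibroma, that of Ccl2 became -0.07 without MPNST library 5 and that of Ccl28 -0.82 with limma-voom, -0.87 without MPNST library 2, -1.91 without libraries 2 and 6 and -2.08 without libraries 2, 3 and 6. Over the fits that left out 1 library, the lowest difference of Ccl6 was -0.50 and of Cx3cl1 -1.02, and the highest was 0.32 for Cxcl12, 2.62 for Cxcl14 (without nerve library 6), 0.82 for Ccl2 and 6.51 for Ccl28. Beyond the libraries left out, the cause was not tested.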

Other observations

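MPNST library 1, which held the highest Cxcl13, Ccl19 and Ccl21a of its group, also held genes known from lymphoid tissue, chosen after their values were seen. Cr2, a complement receptor of B cells and follicular dendritic cells, stood at 315.8 CPM there against at most 0.388 in the other MPNST libraries and at most 16 in any nerve or neurofibroma library. Glycam1, known from high endothelial venules, stood at 38.5 CPM there against at most 4.60 in all other libraries. Cxcr5 and Ccr6 stood at 30.3 and 18.8 CPM, against at most 1.75 and 1.78 elsewhere.

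Mast cell markers, of which 5 of 7 were tested, summed to 0.818 to 39.1 CPM in MPNST, beside 3.75 to 20.2 in nerve and 8.45 to 23.2 in neurofibroma, and none was called by edgeR in any of the 3 comparisons.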
